A study of Mus musculus with 48 samples.

Results

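Ikzf1 encodes Ikaros, and its deletion was compared with a matched control in total pro-B cells, meaning pro-B cells not narrowed to a c-Kit-high fraction. The comparison holds 4 RNA-sequencing libraries out of 30 in the series, which has 48 samples in all. The 2 control libraries came from C57BL/6 mice of genotype Ikzf1(fl/+) Cd79a(Cre/+), and the 2 deleted libraries from C57BL/6 mice of genotype Ikzf1(fl/-) Cd79a(Cre/+). A gene row entered when its RPKM (read count scaled by gene length and by mapped reads of the library) was at least 1 in 2 of these 4 libraries, which took 10683 of 21025 rows. The comparison asks which transcripts depend on Ikaros once the B lineage has been entered.

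Both groups carry Cre recombinase in 1 copy of Cd79a, a B-cell receptor gene that is switched on early in the B lineage, so recombination is limited to cells that have expressed it. In the controls the recombined floxed allele leaves an intact second copy of Ikzf1, so they stand for cells with 1 functional copy rather than for wild type. In the deleted group the other copy is already null in every cell of the animal. For comparison, 4 libraries of c-Kit-high pro-B cells had the same pair of genotypes, 4 libraries of Rag2(-/-) pro-B cells had those genotypes on a background that cannot rearrange receptor genes, and 2 libraries of wild-type pre-B cells gave a later stage. The labels do not say that the 2 libraries of a group came from separate animals, so the p-values below measure only the spread between these libraries, which may be technical. Culture and sorting of the cells are not described in the sources used here.

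Ikaros is a zinc finger transcription factor that binds DNA sites with a GGGAA core and recruits chromatin regulators, among them the NuRD remodelling complex. It can hold genes silent or help to activate them, and its loss is a frequent lesion in B-cell acute leukaemia. Pro-B cells rearrange their immunoglobulin heavy chain gene, then test the product in the pre-B-cell receptor (pre-BCR) and move from dependence on interleukin 7 and stromal contact to pre-BCR signals.

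The 4 libraries were close in implied depth and in the share of ribosomal protein genes. The share of histone genes and the count of rows at 0 differed by group. Per the deposited values, low genes fell on steps that imply a depth of 10.2 to 12.4 M (mega) reads. At that depth 1 RPKM stands for about 10.2 to 12.4 reads per kilobase. Ribosomal protein genes took 7.76% to 7.87% of summed RPKM in all 4. Histone genes took 0.212% and 0.185% in controls and 0.309% and 0.284% in deleted libraries, without overlap. Rows listed at 0 numbered 7908 and 7392 in controls and 8109 and 8370 in deleted libraries. The part of these library differences in the calls was not tested. Pearson's r of log2(RPKM + 1) across gene rows, which are not independent replicates, was 0.991 between the controls, 0.986 between the deleted libraries and 0.918 to 0.923 between groups. Xist and the Y-linked genes Ddx3y, Eif2s3y and Kdm5d were read in every library, Xist at 8.07 to 12.01 RPKM and Eif2s3y at 6.18 to 10.1 RPKM, so each library held RNA of both sexes. The median log2 difference over all rows tested was 0.04 with the deposited values, -0.01 when they were quantile normalized and -0.03 when scaled by median ratio.

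The labelled cell type was checked against its markers. Transcripts of the surrogate light chain gene Igll1 stood at 1405 and 1361 RPKM in controls against 1508 and 1343 in deleted libraries, against 18.5 and 22.6 in the pre-B libraries. Cd79a, Cd79b, Pax5, Ebf1 and Kit were present in all 4 libraries. Other pro-B markers were low in the deleted libraries, all below the controls. Rag1 was at 0.872 and 0.1995 RPKM there, Rag2 at 0.0238 and 0.0261, Dntt at 6.49 and 4.14 and Bst1 at 9.93 and 8.55. The pre-B antigens Il2ra, Cd2 and Ms4a1 did not pass 1.62 RPKM in any library. Cd22, also a pre-B antigen, was at 12.2 and 11.9 RPKM in controls and 97.99 and 96.2 in deleted libraries. The pre-B libraries held it at 69.6 and 78.9 RPKM. The control libraries held less of some early genes than the c-Kit-high controls did: Rag1 was at 20.2 and 14.8 RPKM against 283 and 361, and the interleukin 7 receptor gene Il7r at 8.49 and 7.93 against 71.2 and 97.2. Of 27 myeloid markers, 16, 13, 12 and 13 were listed at 0 in the 2 controls and the 2 deleted libraries, among them the neutrophil genes S100a8, S100a9, Ngp and Elane in all 4.

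Stromal RNA gave different sums by list. The written list of endothelial and stromal genes summed to 656.6 and 796.9 RPKM in the controls and, after deletion, to 816.9 and 678.4 RPKM, with overlap. Vim alone held 443.5 and 485.8 RPKM in the controls, and 362.8 and 376.1 RPKM in the c-Kit-high controls. After deletion Vim was at 317.7 and 316.5 RPKM, Cd248 at 244.6 and 188.2 and Serpinh1 at 108.7 and 62.35. These sums therefore do not speak for the list as a whole. Another list of 20 fibroblast and stromal genes, chosen after their values were seen and without Cd248 and Serpinh1, which rose, summed to 185.7 and 282.9 RPKM in the controls but to 74.0 and 61.9 RPKM after deletion, against 4.6 to 25.2 RPKM in the c-Kit-high libraries. Dcn and Lum, a pair of fibroblast genes on that list, were listed at 0 in all 4 libraries. As the second list was picked on these values, its direction is no result, and the part of stromal RNA in the falls given below was not tested. In bulk RNA, fewer cells of a type and less RNA per cell cannot be told apart.

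Ikzf1 itself was measured over its whole gene model, which cannot resolve a deleted exon and so checks the genotype little. It was at 59.2 and 56.4 RPKM in control and 45.3 and 48.9 RPKM in deleted libraries. All deleted values lay below the controls, but the difference of -0.29 ± 0.14 (SE) on the log2 scale was not called (limma adjusted p = 0.166, and 0.0488 with the 4 libraries alone in the fit). Among the other members of the family, Ikzf4 (Eos) rose from 1.98 and 2.18 RPKM to 6.17 and 4.35 (limma adjusted p = 0.00224). Ikzf3, which encodes the close relative Aiolos, was at 15.3 and 15.3 RPKM in controls against 64.1 and 76.2 in deleted libraries, groups well apart. Its log2 difference of 2.12 ± 0.92 (SE) was not called in the pooled fit (limma adjusted p = 0.1396), in which its spread comes from all 7 groups, and had an adjusted p of 7.28e-05 with the 4 libraries alone. Ikzf5 (Pegasus) was at 5.51 and 6.27 RPKM in control and 6.51 and 7.77 RPKM in deleted libraries and was not called, and Ikzf2 (Helios) did not pass the filter in level, at 0.176 to 1.22 RPKM.

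Over all rows, 2755 of 10683 were called at a limma adjusted p under 0.05, which is 25.8%. Of these 1592 rose (14.9%) and 1163 fell (10.9%). The rises included 607 of at least 1 on the log2 scale and 184 of at least 2, and the falls 531 and 114. No called row had overlapping groups, but 67.3% of all rows tested also had none (37.8% with deleted above control and 29.4% below), so separation of 2 against 2 libraries is common here. With 1 library left out the count was 1737 to 1958: 1747 without control replicate 1, 1737 without control replicate 2, 1958 without deleted replicate 1 and 1872 without deleted replicate 2. Quantile normalization gave 1354 rises and 1306 falls, and median-ratio scaling gave 1307 and 1375, so the excess of rises over falls rests on the scale of the values as deposited. Of the rows that passed the filter, 258 did so through the deleted libraries alone and 324 through the controls alone. Of these, 205 and 260 were called, a larger share than the 25.8% of all rows. The filter set the direction of these rows, so their calls are no added support. Near the threshold, 53 rows lay just under it, with a second highest value of 0.95 to 1 RPKM, and 44 just over it, at 1 to 1.05.

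**Figure D1:**
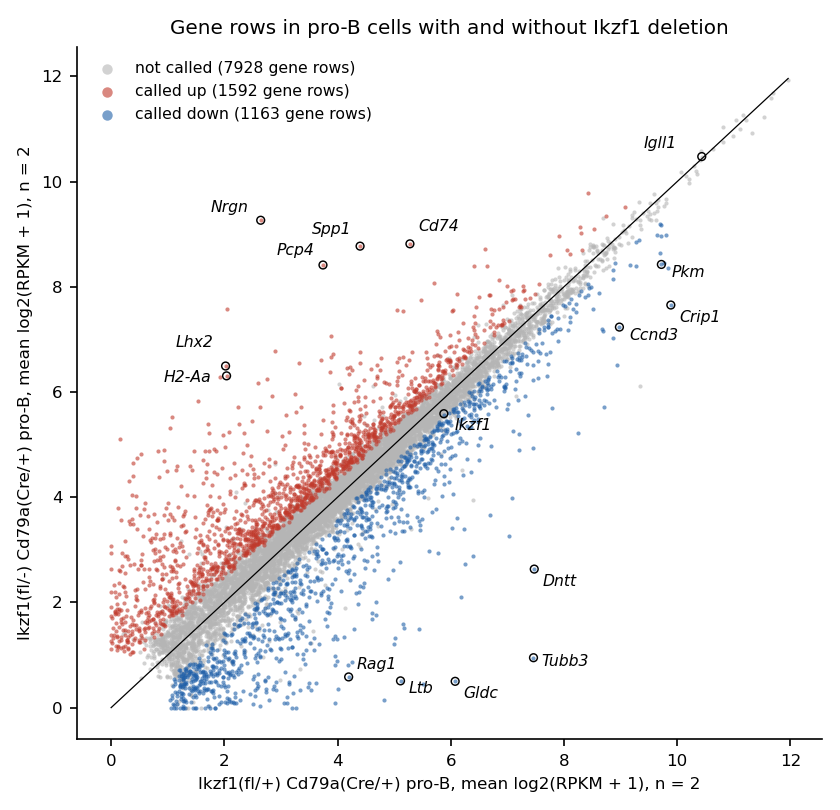
Mean log2(RPKM + 1) of each of 10683 gene rows in the 2 control (horizontal axis) and 2 deleted (vertical axis) pro-B libraries, coloured by limma call; the line marks equal values. Nrgn, Pcp4, Spp1 and Cd74 stand far above the line, Tubb3, Gldc and Dntt far below it, and Igll1 and Ikzf1 close to it.

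The largest rises on the log2 scale were in genes at low levels in the controls. Neurogranin (Nrgn), which binds calmodulin and is a familiar neuronal gene, was at 3.001 and 8.74 RPKM in controls against 666 and 566 in deleted libraries, a 105-fold difference of means (log2 6.62 ± 0.36 SE, limma adjusted p = 8.20e-07). Pcp4, another calmodulin-binding gene of neurons, was at 13.8 and 11.1 RPKM in control and 319.8 and 362 RPKM in deleted libraries (log2 4.67 ± 0.20, limma adjusted p = 1.56e-08). The small GTPase genes Rasd1 and Rasd2 rose by 5.53 and 4.26 on the log2 scale. Rasd1 was the more uneven of the pair, at 244 and 147 RPKM in the deleted libraries. Secreted proteins were represented by Spp1 (osteopontin), at 14.8 and 27.2 RPKM in controls against 419 and 455 in deleted libraries, and the chemokine gene Ccl3, at 0.109 and 0.123 RPKM in control and 34.1 and 32.6 RPKM in deleted libraries. In each of these genes the lowest deleted library was many times above the highest control. Ccl3 passed the filter through the deleted libraries only, so the filter set its direction.

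Transcription factor genes of other tissues were also among the 15 largest rises. Lhx2, a LIM homeobox gene, was at 1.96 and 4.57 RPKM in controls against 95.3 and 83.4 in deleted libraries (limma adjusted p = 6.34e-07). The T-box gene Tbx19, known from the pituitary, was at 0.6802 and 1.61 RPKM in control and 46.9 and 43.2 RPKM in deleted libraries. Emx2, a homeobox gene of forebrain and urogenital development, was listed at 0 in control replicate 1 and at 1.09 RPKM in control replicate 2, against 26.6 and 28.04 after deletion. The remaining leaders were the inhibitory receptor gene Pdcd1 (PD-1), the MHC class II gene H2-Aa, the receptor component gene Ramp1, Myzap, Frmd4b and the eosinophil granule gene Prg3, with log2 differences of 4.06 to 4.36. By the size of the RPKM difference, the leading rises added Cd24a, Cd74, Ifitm3, Igfbp4, Tle5, Ptpn6 and Laptm5. Cd24a (heat stable antigen), already abundant, was at 355 and 333 RPKM in controls against 848 and 909.7 in deleted libraries.

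**Figure D2:**
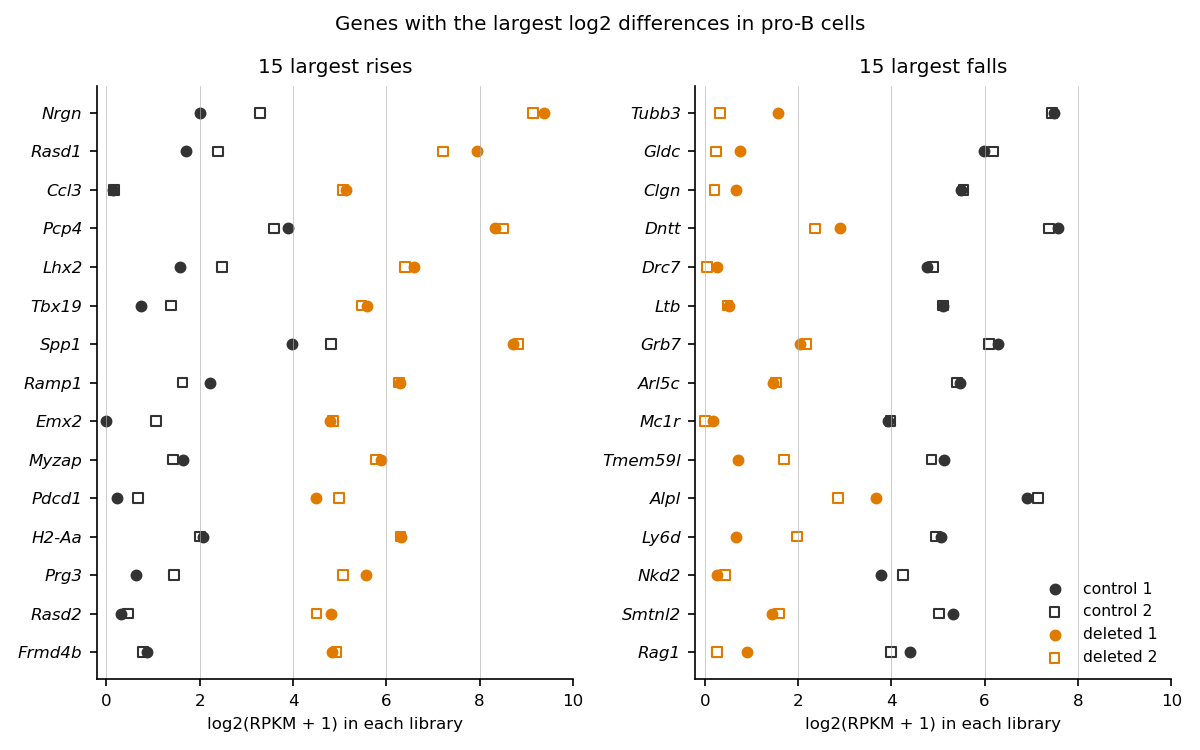
Log2(RPKM + 1) in each library for the 15 called genes with the largest rises (left) and falls (right), circles for replicate 1 and squares for replicate 2. In all 30 genes the 2 deleted libraries lie apart from the 2 controls.

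Several of the largest falls ended under 2 RPKM. Tubb3, a class III beta-tubulin gene, was at 178 and 172 RPKM in control and 1.97 and 0.257 RPKM in deleted libraries (158-fold lower, log2 -6.51 ± 0.37 SE, limma adjusted p = 5.38e-07). Gldc, the glycine decarboxylase of the mitochondrial glycine cleavage system, was at 61.9 and 71.5 RPKM in controls against 0.684 and 0.188 in deleted libraries (limma adjusted p = 3.81e-07). The endoplasmic reticulum chaperone gene Clgn (calmegin) was at 43.9 and 45.7 RPKM in control and 0.599 and 0.155 RPKM in deleted libraries. All 3 genes were thus expressed in the controls and close to absent after deletion. Drc7, a gene of motile cilia, had the smallest error of the 15 falls, at 26.1 and 28.7 RPKM in controls against 0.199 and 0.0311 in deleted libraries (log2 -4.67 ± 0.16 SE). Ltb, which encodes lymphotoxin beta, was at 33.7 and 33.5 RPKM in control and 0.442 and 0.404 RPKM in deleted libraries (limma adjusted p = 2.50e-05). Gldc, Clgn, Drc7 and Ltb passed the filter through the controls only, so the filter set their direction and their calls are no added support. The adaptor gene Grb7 and the phosphatase gene Alpl fell by 21.7 and 14.6 times, and Alpl is also a gene of stromal and bone-forming cells. Arl5c, Mc1r, Tmem59l, Ly6d, Nkd2 and Smtnl2 completed the list with Dntt and Rag1. By RPKM difference, the leading falls were in Crip1, at 908 and 987 RPKM in controls against 213 and 188 in deleted libraries, then Lgals1, Coro1a, Pkm, Ldha, Mzb1, Ly6e, Cplx2, Ccnd3 and Tmsb4x. The calls for Ly6e and Tmsb4x were lost when some single libraries were left out, with a limma adjusted p of up to 0.128 for the former (without either control or deleted replicate 2) and up to 0.151 for the latter (without either control or deleted replicate 1).

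Genes of antigen receptor rearrangement split by role. The lymphoid recombinase subunits and terminal transferase fell, and no fall of a general repair factor was called. Dntt, whose product adds untemplated nucleotides at V(D)J joins, was at 189.7 and 165 RPKM in control and 6.49 and 4.14 RPKM in deleted libraries, 33.4-fold lower (log2 -4.84 ± 0.51 SE, limma adjusted p = 1.50e-04). Rag1 was at 20.2 and 14.8 RPKM in controls against 0.872 and 0.1995 in deleted libraries (limma adjusted p = 8.01e-04) and Rag2, the other recombinase subunit, at 6.14 and 4.404 RPKM in control and 0.0238 and 0.0261 RPKM in deleted libraries (limma adjusted p = 3.20e-05). Both deleted libraries were thus under 1 RPKM for each recombinase gene, so Rag1 and Rag2 passed the filter through the controls only. Of 13 tested rows of the rearrangement and end joining list, 3 fell and 2 rose, with a median log2 difference of -0.01 (1 rise when any library was left out). The list shares were 23.1% down and 15.4% up, against 10.9% and 14.9% of all rows. The rises were small: Nhej1 (XLF), an end joining factor, was at 5.04 and 4.25 RPKM in controls against 9.76 and 9.77 in deleted libraries. The ligase gene Lig4 and the kinase gene Prkdc were at 7.202 and 5.03 RPKM in control and 4.06 and 5.43 RPKM in deleted libraries and 3.04 and 2.69 RPKM in controls against 3.395 and 3.16 in deleted libraries, with no call. Foxo1, a known activator of Rag1 and Rag2 transcription, was at 41.4 and 43.04 RPKM in control and 12.9 and 8.97 RPKM in deleted libraries (log2 -1.88 ± 0.15 SE, limma adjusted p = 1.84e-06). In wild-type pre-B cells Rag1 was at 476 and 433 RPKM, so neither pro-B group approached that level.

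Promoter sequence is shown for leading genes of either direction, as a view of the GGGAA core to which Ikaros binds. Each is the 250 bases before the start of the first promoter listed by RefSeq for the gene (GRCm38.p6, whereas the deposited values are on mm9), 5′ to 3′ on the gene's strand, with GGGAA or its reverse complement TTCCC in capitals. Nrgn lies on the minus strand at chr9:37552746-37552995, Ltb on the plus strand at chr17:35194257-35194506 and Dntt on the plus strand at chr19:41029025-41029274.
Nrgn: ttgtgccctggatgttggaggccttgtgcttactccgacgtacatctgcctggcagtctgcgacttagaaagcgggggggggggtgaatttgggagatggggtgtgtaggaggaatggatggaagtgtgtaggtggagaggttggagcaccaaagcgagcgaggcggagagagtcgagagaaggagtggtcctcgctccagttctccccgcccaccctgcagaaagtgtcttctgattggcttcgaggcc
Ltb: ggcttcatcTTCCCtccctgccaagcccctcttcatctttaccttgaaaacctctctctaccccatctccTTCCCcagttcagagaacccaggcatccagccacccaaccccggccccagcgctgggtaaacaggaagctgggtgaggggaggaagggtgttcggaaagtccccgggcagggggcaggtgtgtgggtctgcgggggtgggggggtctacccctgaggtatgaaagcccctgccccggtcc
Dntt: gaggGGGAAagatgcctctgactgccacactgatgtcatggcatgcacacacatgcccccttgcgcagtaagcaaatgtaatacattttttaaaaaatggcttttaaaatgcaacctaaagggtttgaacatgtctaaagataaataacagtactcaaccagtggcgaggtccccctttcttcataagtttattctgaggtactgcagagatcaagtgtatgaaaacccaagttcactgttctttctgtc
The window of Ltb holds 2 copies of the core, that of Dntt 1 copy and that of Nrgn 0 copies. Over all tested genes with a listed promoter, 5043 of 8597 (58.7%) hold GGGAA on either strand. The share was 59.8% (751 of 1256) for genes called up and 57.9% (522 of 901) for genes called down. For the longer TGGGAA, which contains the core, the shares were 21.7% up, 21.8% down and 20.3% of all, and for TGGGAAT 4.70% up, 2.55% down and 3.37% of all. A copy of these letters is no evidence of binding, and the called groups lay close to all genes for the shorter forms.

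Structural genes of the pre-BCR gave 2 falls, and its signalling genes moved both ways. Of 6 rows for the receptor itself, 2 fell (33.3%, against 10.9% of all rows) and 0 rose: the near-identical surrogate light chain genes Vpreb1, at 842 and 836 RPKM in controls against 576 and 574 in deleted libraries, and Vpreb2, at 257 and 292 RPKM in control and 188 and 155 RPKM in deleted libraries. The pair share reads that the counting could split between them. Both calls were close to the threshold (limma adjusted p = 0.0405 and 0.0158) and neither held in every reading: leaving out single libraries gave limma adjusted p values of 0.132 to 0.155 for Vpreb1, and 0.118 for Vpreb2 without control replicate 2 and 0.128 without deleted replicate 2. Igll1, Vpreb3, Cd79a and Cd79b were not called, with log2 differences of -0.22 to 0.04. With no filter 0 of the 6 fell, and with neither trend nor robust moderation 1 did.

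Of 26 tested genes of pre-BCR signalling, 6 fell and 7 rose, against 10.9% and 14.9% of all rows, with a median log2 difference of 0.10. Among the 7 rises, Rasgrp3 passed the filter through the deleted libraries only. Blnk (SLP-65), the adaptor that links Syk to calcium and Ras pathways, was at 142 and 146 RPKM in controls against 63.95 and 49.9 in deleted libraries (log2 -1.34 ± 0.13 SE, limma adjusted p = 9.08e-06). The kinase gene Blk was at 24.4 and 16.5 RPKM in control and 3.48 and 4.56 RPKM in deleted libraries, and Pik3cd, the catalytic p110δ subunit of PI3 kinase, at 157 and 159 RPKM in controls against 62.02 and 58.2 in deleted libraries. These values put 3 positive components of the cascade lower in both deleted libraries. The kinase genes Fyn and Prkcb also fell. Among the rises were Ptpn6, which encodes the inhibitory phosphatase SHP-1, at 83.6 and 85.6 RPKM in control and 327 and 349 RPKM in deleted libraries (limma adjusted p = 3.73e-07), and Lyn, a Src kinase with inhibitory as well as activating roles, at 21.2 and 18.5 RPKM in controls against 45.6 and 45.4 in deleted libraries. The PI3 kinase adaptor gene Pik3ap1 (BCAP) was at 94.6 and 85.1 RPKM in control and 216 and 228 RPKM in deleted libraries, and the NF-κB adaptor gene Malt1 rose by 1.33 on the log2 scale. With 1 library left out, the falls numbered 6 and the rises 6.

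Transcription factors of the B lineage moved in both directions, with 8 of 29 up (27.6%) and 7 down (24.1%), against 14.9% and 10.9% of all rows, and a median of 0.34. The Ets factor gene Erg, known from stem cells and early B cells, was at 104 and 100.4 RPKM in controls against 14.4 and 9.33 in deleted libraries (log2 -3.03 ± 0.25 SE, limma adjusted p = 4.10e-06). Tcf3, which encodes the E2A proteins, was at 264 and 274 RPKM in control and 148 and 138 RPKM in deleted libraries, and Id3, an inhibitor of E proteins, at 106 and 103 RPKM in controls against 29.7 and 31.3 in deleted libraries. An E protein gene and an E protein inhibitor were therefore both lower. Ebf1 fell from 89.01 ± 3.19 RPKM in controls to 52.9 ± 8.84 after deletion (SD, n = 2; limma adjusted p = 0.00485; 0.0641 without deleted replicate 2), while Pax5, the commitment factor downstream of it, rose from 136 ± 4.21 RPKM to 245 ± 2.15 (SD, n = 2, limma adjusted p = 0.00108). Further factors rose: Irf4, at 23.4 and 18.9 RPKM in control and 70.9 and 78.03 RPKM in deleted libraries, the repressor gene Bach2, at 13.3 and 15.2 RPKM in controls against 50.5 and 54.98 in deleted libraries, and Mef2c, at 17.2 and 16.5 RPKM in control and 38.9 and 47.5 RPKM in deleted libraries. In the pre-B libraries Irf4 was at 223 and 206 RPKM and Bach2 at 209 and 205, above both pro-B groups, but Mef2c was at 20.9 and 15.2, near the pro-B controls. Pou2af1 (OBF-1), Fli1 and Spi1 (PU.1) rose by 0.72, 0.72 and 0.69 on the log2 scale. Irf8 fell by 0.60, the opposite direction to its relative Irf4.

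Surface antigens used to stage B cells gave a mixed picture, with 9 of 19 up (47.4%) and 5 down (26.3%), against 14.9% and 10.9% of all rows, and a median of 0.69. Antigens that rose included Cd22, an inhibitory co-receptor, at 12.2 and 11.9 RPKM in controls against 97.99 and 96.2 in deleted libraries (limma adjusted p = 3.73e-07), Cd72, another inhibitory co-receptor, at 12.4 and 15.3 RPKM in control and 85.99 and 118 RPKM in deleted libraries, and Cd38 at 1.24 and 1.47 RPKM in controls against 14.8 and 20.7 in deleted libraries. Cd22 and Cd72 are antigens that increase as B cells mature. Early antigens did not move as a block: Bst1 (BP-3) was at 36.5 and 32.2 RPKM in control and 9.93 and 8.55 RPKM in deleted libraries and fell, while Spn (CD43) was at 128 and 114 RPKM in controls against 192 and 201 in deleted libraries and rose. Ly6d, which marks B-committed progenitors, went from 31.3 ± 1.69 RPKM to 1.76 ± 1.67 (SD, n = 2, limma adjusted p = 0.0121), a call lost without control replicate 1 (adjusted p = 0.0637), control replicate 2 (0.0578) or deleted replicate 1 (0.0747). The progenitor receptor Il7r had values of 8.49 and 7.93 RPKM in control and 22.1 and 22.7 RPKM in deleted libraries, and its call (limma adjusted p = 0.0143) did not survive the loss of any 1 library (0.0613 to 0.0769). Among the 4 rows of this list that passed the filter through 1 group only were Cd2, listed at 0 in both deleted libraries, and Cd34, listed at 0 in both controls and at 3.69 and 1.99 RPKM after deletion. With 1 library left out, 5 antigens were up without control replicate 1 or deleted replicate 1 and 6 without either of the others, and 3 were down without either control and 4 without either deleted library.

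Most tested MHC class II genes rose. Of 9 tested rows, out of 12 on the list, 7 were up and 0 down by limma, and at an unadjusted p under 0.05 they were 9 and 0 (5 to 6 up with 1 library left out). Ciita and H2-DMb1, 2 of the 7, passed the filter through the deleted libraries only. The share up was 77.8%, against 14.9% up among all rows, and the median log2 difference was 1.82 against 0.04 over all rows. Ciita, the master transactivator of the class II genes, was at 0.719 and 0.454 RPKM in controls against 4 and 5.197 in deleted libraries (log2 1.82 ± 0.21 SE, limma adjusted p = 3.44e-05). Its target Cd74, the invariant chain that guides class II molecules, was at 33.6 and 42.5 RPKM in control and 429 and 472 RPKM in deleted libraries (11.8-fold). The alpha chain gene H2-Aa was at 3.22 and 3.003 RPKM in controls against 78.4 and 77.98 in deleted libraries (25.1-fold, limma adjusted p = 2.58e-07), and the beta chain gene H2-Eb1 at 3.098 and 1.34 RPKM in control and 16.6 and 19.97 RPKM in deleted libraries. Both groups kept far apart in each of these. The peptide loading gene H2-DMb1 was at 0.06704 and 0.303 RPKM in controls against 4.32 and 2.96 in deleted libraries. H2-Ab1, the partner chain of H2-Aa, was at 29.4 and 33.5 RPKM in control and 62.95 and 58.8 RPKM in deleted libraries, with no call (limma adjusted p = 0.0538, and 8.90e-04 with the 4 libraries alone). Class II genes have close paralogs, so their separate levels are uncertain. For scale, the pre-B libraries held Cd74 at 476 and 536 RPKM and H2-Aa at 68.3 and 86.1. H2-Aa in the deleted pro-B libraries lay between those pre-B values, and Cd74 just below them; the pre-B libraries also held myeloid-list RNA at 7815 and 8151 RPKM.

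The promoters of H2-Aa and H2-Eb1 are printed because class II genes are known for a shared promoter module that ends in a Y box, an inverted CCAAT element. ATTGG and its reverse complement CCAAT are in capitals, in the same 250-base RefSeq window; this motif was chosen after the values were seen. H2-Aa lies on the minus strand at chr17:34287824-34288073 and H2-Eb1 on the plus strand at chr17:34305617-34305866.
H2-Aa: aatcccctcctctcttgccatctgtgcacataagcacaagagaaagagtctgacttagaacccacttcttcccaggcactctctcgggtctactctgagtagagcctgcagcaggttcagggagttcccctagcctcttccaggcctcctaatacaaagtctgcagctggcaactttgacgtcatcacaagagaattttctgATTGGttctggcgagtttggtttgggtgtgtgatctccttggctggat
H2-Eb1: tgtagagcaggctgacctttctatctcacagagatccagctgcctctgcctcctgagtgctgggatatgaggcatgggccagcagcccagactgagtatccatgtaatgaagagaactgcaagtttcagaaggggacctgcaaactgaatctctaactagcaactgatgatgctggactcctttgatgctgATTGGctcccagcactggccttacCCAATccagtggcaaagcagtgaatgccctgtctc
All 5 class II genes that were called up and have a listed promoter hold ATTGG or CCAAT in this window, compared with 37.1% of all tested promoters (3191 of 8597), 34.6% of those called up and 35.2% of those called down. Class II genes were picked for this module, and those not called were not counted apart. The share therefore does not bear on the calls.

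Glycolysis moved the other way. Of 24 tested rows of glucose uptake and glycolysis, 15 fell and 1 rose, against 10.9% and 14.9% of all rows, and the median log2 difference was -0.72. Their RPKM summed to 3570 and 3548 in control libraries but to 1892 and 1865 after deletion. At the entry step, the transcript of the glucose transporter gene Slc2a1 (GLUT1) was lower, at 35.8 and 38.7 RPKM in controls against 17.5 and 17.01 in deleted libraries (log2 -1.06 ± 0.14 SE, limma adjusted p = 1.14e-04). In the middle of the pathway, aldolase Aldoa was at 612 and 628 RPKM in control and 343 and 326 RPKM in deleted libraries, triose phosphate isomerase Tpi1 at 359.6 and 372 RPKM in controls against 194 and 185 in deleted libraries and phosphofructokinase Pfkl at 88.7 and 94.8 RPKM in control and 56.1 and 52.9 RPKM in deleted libraries. Transcripts of the last steps were lower as well. The pyruvate kinase gene Pkm was at 859 and 827 RPKM in controls against 358 and 328 in deleted libraries (limma adjusted p = 1.08e-05). The lactate dehydrogenase gene Ldha was at 837 and 822 RPKM in control and 384 and 411 RPKM in deleted libraries (limma adjusted p = 5.27e-05). Transcripts of the lactate transporter gene Slc16a1 (MCT1) and the pyruvate dehydrogenase kinase gene Pdk1 fell by 1.79 and 2.37 times. In these genes the 2 libraries of a group differed far less than the groups did. The enolase gene Eno3, a muscle form, was the exception, at 7.29 and 7.72 RPKM in controls against 47.98 and 44.1 in deleted libraries (limma adjusted p = 0.00225), beside a lower Eno1. With 1 library left out 9 to 10 members were called down, 9 without control replicate 2 or deleted replicate 2. Gapdh, Pgk1 and Pgam1 were listed at 1.55, 22.8 and 5.47 RPKM on average in the controls, low for such enzymes; they have processed gene copies that can take their reads, so their values are uncertain.

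Related pathways had fewer calls, set here against 14.9% up and 10.9% down over all rows. Of 21 tested subunits of oxidative phosphorylation 3 fell and 0 rose, with a median of -0.03 (2 rises and 3 falls at an unadjusted limma p under 0.05), and 0 falls were called once any 1 library was left out. Of 15 genes of serine, glycine and one-carbon metabolism 4 fell (26.7%, against 10.9% of all rows) and 0 rose: Gldc as above, the serine synthesis gene Phgdh, at 67.98 and 64.99 RPKM in control and 26.9 and 26.7 RPKM in deleted libraries, Shmt2 and Psph. Among these 4, Gldc passed the filter through the controls only. With 1 library left out 2 to 3 fell (2 without control replicate 2 or deleted replicate 2), with no filter 2 fell, and with the 4 libraries alone in the fit 9 fell.

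The promoter of Ldha is shown as an example from the glycolysis genes, which are known targets of factors that bind ACGTG, the core of hypoxia response elements and part of the CACGTG E-box. ACGTG and its reverse complement CACGT are in capitals (the same window and source, plus strand, chr7:46845554-46845803), and the motif was again chosen after the values were seen.
Ldha: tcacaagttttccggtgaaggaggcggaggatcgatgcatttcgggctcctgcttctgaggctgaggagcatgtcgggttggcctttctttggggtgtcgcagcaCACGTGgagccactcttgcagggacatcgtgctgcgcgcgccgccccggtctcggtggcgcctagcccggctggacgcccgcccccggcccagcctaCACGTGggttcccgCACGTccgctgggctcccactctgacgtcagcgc
The window holds 5 matches, of which 2 pairs overlap in CACGTG. Of the fallen glycolysis genes with a listed promoter, 6 of 14 (42.9%) hold ACGTG on either strand, and of all 23 tested glycolysis genes with one 10 do (43.5%), compared with 22.8% of all tested promoters (1956 of 8597). Since the fallen members match the whole list, the share does not separate genes that fell from those that did not.

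**Figure D3:**
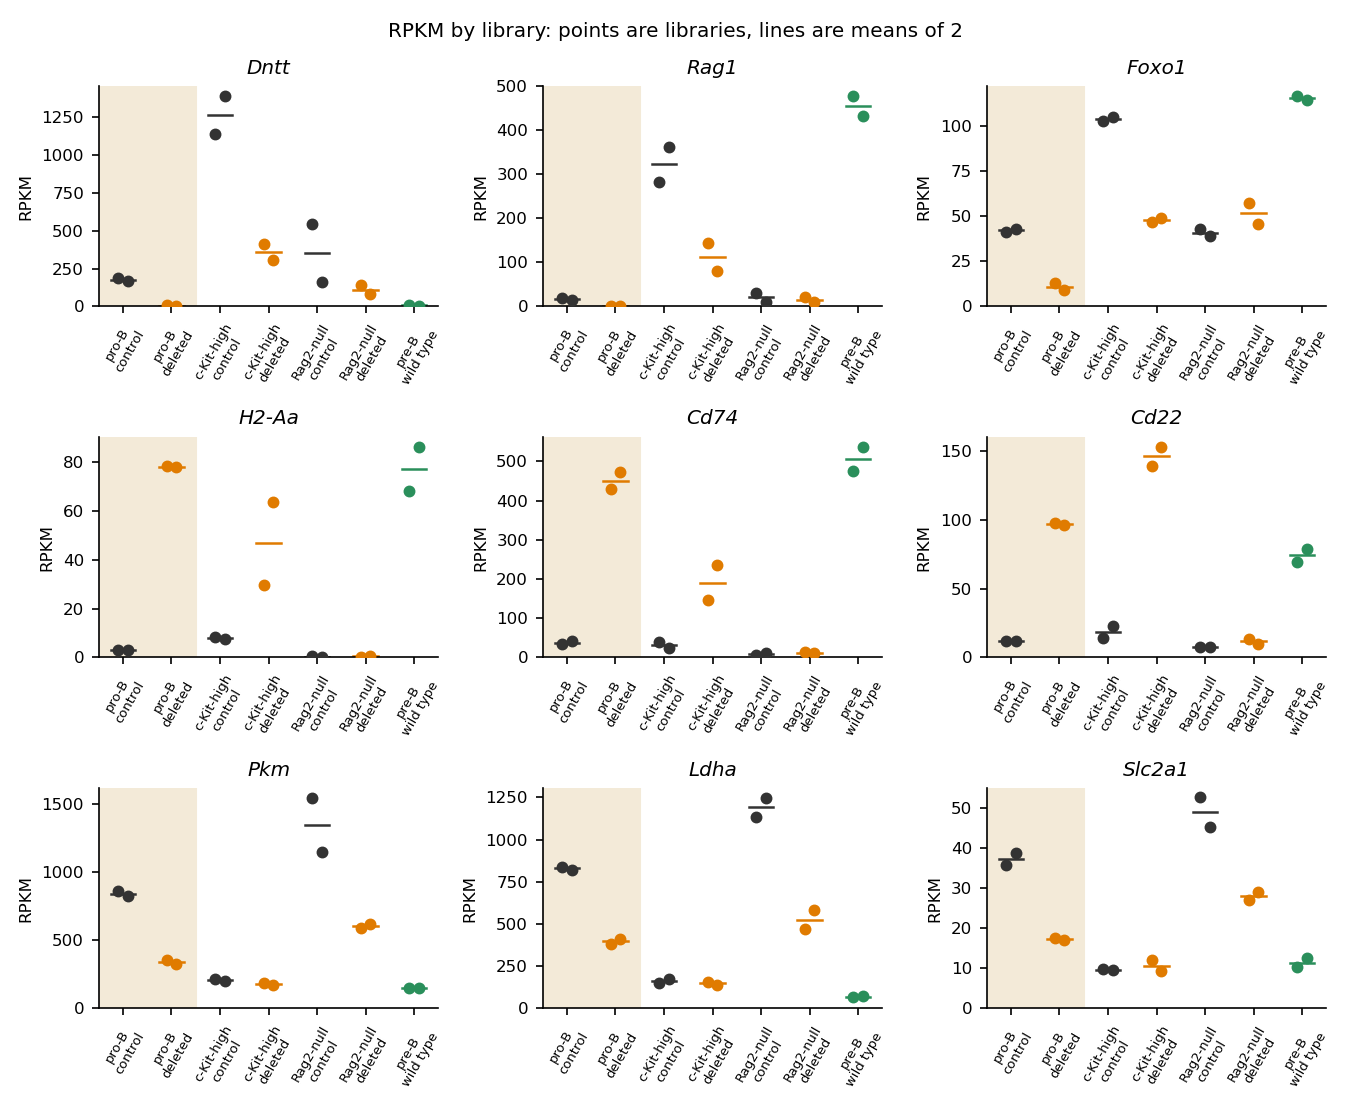
RPKM of 9 genes in each of 14 libraries, on linear axes that start at 0; the shaded part holds the 4 pro-B libraries. Dntt, Rag1 and Foxo1 were lower after deletion in pro-B cells, H2-Aa, Cd74 and Cd22 higher, and Pkm, Ldha and Slc2a1 lower, while the c-Kit-high controls already had Pkm at 219 and 203 RPKM.

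Some genes of cell cycle entry fell. Of 17 entry genes 6 fell (35.3%, against 10.9% of all rows) and 1 rose (4 to 6 falls with 1 library left out, 4 without control replicate 2 or deleted replicate 1), with a median of -0.15. Ccnd3, the D cyclin that pre-B cells depend on, was at 505 and 503 RPKM in controls against 161 and 139 in deleted libraries (log2 -1.75 ± 0.16 SE, limma adjusted p = 5.37e-06), while its relative Ccnd2 was at 129.7 and 137 RPKM in control and 219.8 and 262 RPKM in deleted libraries and rose (limma adjusted p = 0.00287). The inhibitor gene Cdkn1a (p21) was at 51.5 and 55.5 RPKM in controls against 7.52 and 5.94 in deleted libraries, and the cyclin gene Ccne1 at 59.3 and 66.2 RPKM in control and 21.1 and 23.5 RPKM in deleted libraries. A cyclin and a cyclin kinase inhibitor were thus both lower. Myc was at 259.7 and 273 RPKM in controls against 257 and 225 in deleted libraries, with no call (limma adjusted p = 0.578). Of 24 mitotic genes 0 were called by limma, and 0 had an unadjusted p under 0.05 (1 was called with the 4 libraries alone). Of 27 DNA replication genes 0 fell (4 with the 4 libraries alone, 2 with median-ratio scaling). The 1 that rose was Cdt1, by 0.45 on the log2 scale, a call lost without control replicate 1 (limma adjusted p = 0.0675), control replicate 2 (0.128) or deleted replicate 1 (0.178).

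Of 20 members of an interleukin 7 and STAT5 list 4 were up and 4 down (20% each, against 14.9% and 10.9% of all rows), with a median of -0.07. The kinase gene Pim1 was at 147 and 147 RPKM in control and 42.5 and 30.5 RPKM in deleted libraries (limma adjusted p = 1.69e-06) and the receptor kinase gene Jak3 at 28.1 and 28.4 RPKM in controls against 11.9 and 12.8 in deleted libraries. Feedback inhibitors went opposite ways: Socs3 was at 24.4 and 19.6 RPKM in control and 9.02 and 3.81 RPKM in deleted libraries and Socs2 at 86.3 and 82.05 RPKM in controls against 171 and 178 in deleted libraries. Stat5b rose by 0.68 on the log2 scale.

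Of 21 lymphotoxin, TNF receptor and NF-κB genes 9 were down (42.9%) and 4 up (19%), against 10.9% and 14.9% of all rows, with a median of -0.36. Of the 9 falls, Ltb, Bcl3 and Tnfrsf8 passed the filter through the controls only. With 1 library left out 5 to 8 were down (5 without deleted replicate 1) and 2 to 3 up (2 without control replicate 1 or deleted replicate 2). Lta, the partner of Ltb in the membrane lymphotoxin complex, was at 122 and 146 RPKM in control and 18.7 and 11.8 RPKM in deleted libraries (log2 -3.09 ± 0.38 SE, limma adjusted p = 1.50e-04). The NF-κB adaptor gene Tifa was at 55.1 and 49.7 RPKM in controls against 12.8 and 12.6 in deleted libraries and the TNF receptor gene Tnfrsf1b at 24.4 and 22.7 RPKM in control and 8.404 and 8.54 RPKM in deleted libraries. Both chains of the lymphotoxin heterotrimer and an adaptor of the pathway were thus lower. Tnfrsf13b (TACI), a receptor of maturing B cells, was at 25.01 and 24.6 RPKM in controls against 80.9 and 74.8 in deleted libraries and rose.

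Adhesion genes were split. Among 34 tested genes of integrins and focal adhesions, 12 rose (35.3%) and 9 fell (26.5%), against 14.9% and 10.9% of all rows, with a median of -0.03 (8 to 10 up and 6 to 7 down with 1 library left out). Icam1, a ligand of leukocyte integrins, was at 24.9 and 24.1 RPKM in control and 2.63 and 2.19 RPKM in deleted libraries (log2 -2.90 ± 0.17 SE, limma adjusted p = 1.82e-07). The leukocyte integrin chains Itgb2 and Itga4 fell too, Itgb2 being at 19.3 and 17.5 RPKM in controls against 6.82 and 5.61 in deleted libraries and Itga4, part of the receptor for Vcam1, at 16.2 and 14.2 RPKM in control and 6.02 and 7.26 RPKM in deleted libraries. Vcam1 itself, a stromal ligand, was at 2.26 and 2.01 RPKM in controls against 0.285 and 0.234 in deleted libraries, beside the stromal RNA given above. The cytoplasmic adhesion genes Parvg, Parvb and Vasp and the chain Itgb5 also fell. Of the 34 genes 4 passed the filter through 1 group only, among them the rises of Itga9 and Lpxn. Rises included the ligand gene Icam2, at 33.7 and 30.7 RPKM in control and 72.6 and 66.5 RPKM in deleted libraries. Itga6, a laminin receptor chain, was at 5.499 and 5.22 RPKM in controls against 11.6 and 15.9 in deleted libraries, and Itga9 at 0.231 and 0.192 RPKM in control and 6.66 and 6.18 RPKM in deleted libraries. The actin crosslinker gene Actn1 was at 14.5 and 16.8 RPKM in controls against 71.9 and 60.6 in deleted libraries and focal adhesion kinase Ptk2 at 3.701 and 4.88 RPKM in control and 13.5 and 15.4 RPKM in deleted libraries.

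Receptors for homing and guidance also moved both ways. Of 11 homing receptor genes 4 rose (36.4%) and 3 fell (27.3%), against 14.9% and 10.9% of all rows. Among the 4 rises, Ccr2 passed the filter through the deleted libraries only. Ccr7, which directs cells to lymph node zones, was at 7.78 and 9.19 RPKM in controls against 62.6 and 60.1 in deleted libraries (limma adjusted p = 9.00e-07), Ccr2 at 0.0482 and 0.571 RPKM in control and 13.1 and 9.31 RPKM in deleted libraries and S1pr2 at 3.68 and 4.34 RPKM in controls against 24.1 and 31.3 in deleted libraries. Cd44 was at 14.9 and 15.2 RPKM in control and 5.71 and 4.94 RPKM in deleted libraries and S1pr4 at 55.6 and 55.8 RPKM in controls against 28.9 and 24.1 in deleted libraries, both lower. Among 19 semaphorin, plexin, neuropilin and ephrin genes 7 rose (36.8%) and 4 fell (21.1%), against 14.9% and 10.9% of all rows, with a median of 0.05 (2 falls without either control or deleted replicate 2, and 4 rises with a mean of at least 3 RPKM required). Of the 7 rises, Efnb2, Nrp2 and Plxnb1 passed the filter through the deleted libraries only. Nrp1 (neuropilin 1), a co-receptor for semaphorins and VEGF, was at 1.06 and 1.4 RPKM in control and 21.7 and 22.1 RPKM in deleted libraries (17.8-fold), and Efnb2 (ephrin B2) at 0.9001 and 0.927 RPKM in controls against 33.99 and 24.4 in deleted libraries. Plxnb2 was at 17.9 and 18.2 RPKM in control and 86.6 and 81.6 RPKM in deleted libraries, and the ephrin receptor gene Ephb2 fell, at 9.89 and 9.87 RPKM in controls against 1.92 and 0.574 in deleted libraries.

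Genes of progenitors and other lineages rose in part. Of 11 stem and progenitor factors tested 6 rose (54.5%) and 1 fell (9.09%), against 14.9% and 10.9% of all rows, with a median of 0.84. The filter was passed through 1 group only by 3 of the 11. Lmo2, a bridging factor of haematopoietic complexes, was at 6.18 and 6.11 RPKM in control and 56.8 and 62.02 RPKM in deleted libraries (log2 3.08 ± 0.24 SE, limma adjusted p = 1.82e-06). Tead2, a TEA domain factor, was at 1.54 and 3.31 RPKM in controls against 42.1 and 31.6 in deleted libraries and the HMG-box gene Tox at 0.272 and 0.307 RPKM in control and 16.1 and 14.8 RPKM in deleted libraries. Tal1, a complex partner of Lmo2, was at 1.12 and 1.36 RPKM in controls against 0.0776 and 0.0213 in deleted libraries and fell. Of 10 tested myeloid genes 6 rose and 2 fell (3 to 6 rises with 1 library left out, 3 without control replicate 1 or deleted replicate 1, and 4 without control replicate 2); 3 of the 10 passed the filter through 1 group only. The myeloid shares were 60% up and 20% down, against 14.9% and 10.9% of all rows. Cebpa, a myeloid transcription factor gene, was at 1.605 and 2.67 RPKM in control and 11.3 and 5.07 RPKM in deleted libraries. Fcgr2b was at 6.17 and 9.87 RPKM in controls against 41.9 and 32.2 in deleted libraries. The granule protease gene Prtn3 was at 0.177 and 0.1003 RPKM in control and 6.22 and 4.82 RPKM in deleted libraries. Lyz2 (lysozyme) was lower, at 13.4 and 12.7 RPKM in controls against 3.504 and 1.76 in deleted libraries. The summed level of the myeloid list was 57.0 and 61.4 RPKM in control libraries but 115.1 and 78.0 RPKM after deletion, and 12 to 16 of its 27 members were at 0. These sums include Fcgr2b, at 6.17 and 9.87 RPKM in controls and 41.9 and 32.2 after deletion. They therefore do not speak for the list as a whole.

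Single genes of further lineages rose from lists that otherwise hardly passed the filter: 1 of 12 eosinophil and mast cell genes and 2 of 17 natural killer and dendritic cell genes were tested. Prg3, an eosinophil granule gene, was at 0.543 and 1.74 RPKM in control and 45.95 and 32.4 RPKM in deleted libraries (limma adjusted p = 1.95e-05), while Epx, Ear1 and Ear2 of the same granules were listed at 0 in all 4 libraries. Nkg7, a gene of natural killer cells, was at 2.01 and 2.39 RPKM in controls against 18.8 and 20.2 in deleted libraries, while Klrd1, Ncr1 and Gzmb were listed at 0 in all 4. Of 14 endothelial and stromal genes tested, 3 of them through 1 group only, 4 rose (28.6%) and 7 fell (50%; 4 without control replicate 2, with a pseudocount of 0.1 or with a mean of at least 3 RPKM required). Over all rows the shares were 14.9% up and 10.9% down. Most of the 7 falls were in genes that stroma expresses, 3 collagen genes among them. Cxcl12, a chemokine of marrow stroma that retains B-cell precursors, was at 31.2 and 45.3 RPKM in control and 9.89 and 9.597 RPKM in deleted libraries. Pdgfra was at 2.61 and 4.08 RPKM in controls against 0.6096 and 0.459 in deleted libraries. The rises were Cd248, Serpinh1, Cdh5 and Pecam1. Cd248 was at 39.04 and 47.9 RPKM in control and 245 and 188 RPKM in deleted libraries and Serpinh1 at 8.76 and 21.03 RPKM in controls against 109 and 62.4 in deleted libraries. Cdh5 was at 0.238 and 0.122 RPKM in control and 7.701 and 2.97 RPKM in deleted libraries, while the endothelial receptor gene Kdr did not exceed 0.125 RPKM in any library. In the T-lineage list 2 of 7 rose, Zap70, at 1.14 and 1.65 RPKM in controls against 8.07 and 6.84 in deleted libraries, and Lck, and 1 fell, Lat, a call lost when any 1 library was left out (limma adjusted p = 0.05801 to 0.0824). The T-lineage shares were 28.6% up and 14.3% down, against 14.9% and 10.9% of all rows. Notch pathway genes were 4 of 10 down (40%) and 1 up (10%), against 10.9% and 14.9% of all rows. The 1 that rose, Dtx1, passed the filter through the deleted libraries only. The Fringe gene Mfng was at 55.3 and 58.3 RPKM in control and 18.1 and 12.8 RPKM in deleted libraries. The target gene Nrarp was at 7.05 and 6.87 RPKM in controls against 0.973 and 1.38 in deleted libraries. Plasma cell genes went both ways, the chaperone gene Mzb1 at 511 and 465 RPKM in control and 89.2 and 91.6 RPKM in deleted libraries and the elongation factor gene Ell2 at 2.17 and 2.88 RPKM in controls against 25.9 and 33.2 in deleted libraries.

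Remaining lists had calls in each direction. NuRD and PRC2 subunits, chromatin complexes that Ikaros works with, were 3 of 18 up (16.7%) and 2 down (11.1%), near the 14.9% and 10.9% of all rows, with a median of -0.06 (0 down without control replicate 2 or deleted replicate 2). Chd3, an alternative remodelling ATPase of NuRD, was at 37.5 and 39.6 RPKM in control and 75.5 and 69.95 RPKM in deleted libraries. The PRC2 accessory gene Jarid2 was at 14.97 and 13.4 RPKM in controls against 49.5 and 47.4 in deleted libraries and had the largest log2 difference of that list. Interferon-stimulated genes were 5 of 17 up (29.4%) and 1 down (5.88%), with 2 of the 17 tested through 1 group only. Immediate early genes were 3 of 18 up and 3 down (16.7% each), with Jun at 51.8 and 64.3 RPKM in control and 20.7 and 15.6 RPKM in deleted libraries. Bcl2 family genes were 4 of 12 up (33.3%) and 1 down (8.33%), with the BH3-only gene Pmaip1 (Noxa) at 3.03 and 1.95 RPKM in controls against 11.2 and 11.8 in deleted libraries. Between 0 and 3 interferon genes rose with 1 library left out (0 without deleted replicate 2, 2 without control replicate 1 or 2), and 0 with no filter. Immediate early rises with 1 library left out were between 1 and 3 (1 without control replicate 1 or deleted replicate 1), and those of the Bcl2 family between 1 and 2 (1 without control replicate 1 or deleted replicate 1). Of 18 cytoskeletal and calmodulin-binding genes 4 rose and 4 fell (22.2% each), among the falls Marcks, a calmodulin-binding membrane protein gene, at 49.95 and 52.5 RPKM in control and 18.7 and 17.2 RPKM in deleted libraries.

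Counts of some lists also differed by over 1.5 times under other settings. With no filter on low values 5 stage antigens rose and 3 fell, 2 semaphorin-list genes fell, 3 myeloid genes rose, 1 Bcl2 family gene rose, 1 immediate early gene rose and 0 oxidative phosphorylation genes fell. With a mean of at least 3 RPKM required, 3 myeloid and 2 interferon-stimulated genes rose. With the 4 libraries alone in the fit 4 Bcl2 family genes fell, 3 genes of cell cycle entry rose and 1 recombination gene rose.

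**Figure D4:**
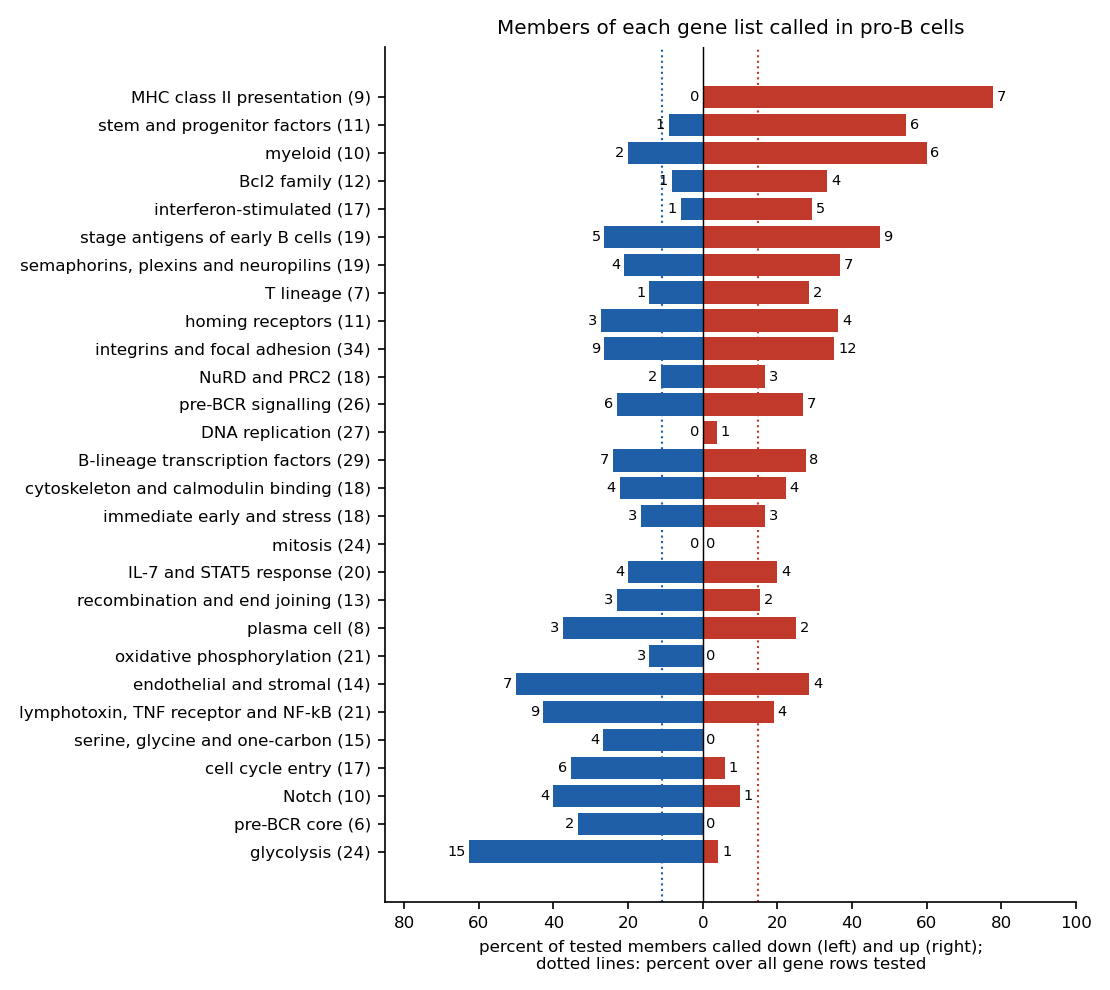
Percent of the tested members of each gene list called up (right, red) or down (left, blue) in pro-B cells, with the number called beside each bar and the number tested in brackets; dotted lines mark 14.9% up and 10.9% down over all rows tested. Lists with under 6 tested members and the list added after values were seen are not drawn; MHC class II (7 up, 0 down) is at the top, glycolysis (1 up, 15 down) at the bottom, and mitosis has 0 calls.

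The deletion was then set beside the same deletion in other pro-B settings, which share no libraries with it but come from the same fit. Over the same 10683 rows, 1175 rose and 567 fell in c-Kit-high cells. For the shares of the other lists given below, the base is the 14.9% of all rows that rose and the 10.9% that fell in pro-B cells. Of the pro-B rises 708 also rose there, which is 44.5% of the pro-B list and 60.3% of the c-Kit-high list, and 8 fell. Of the pro-B falls 339 also fell there (29.1% and 59.8%) and 41 rose. In Rag2-null cells 682 of the pro-B rises rose too (42.8% of the pro-B list and 39.9% of the Rag2-null list of 1708) and 43 fell. Of the pro-B falls 349 fell there (30.0% and 42.6% of the Rag2-null list of 820) and 166 rose. As 1708 of all 10683 rows rose in Rag2-null cells, some pro-B falls would be among them without any link. The counts in opposite directions are therefore not read as a reversal.

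Differences between the effects were tested as interactions. The pro-B effect differed from the c-Kit-high effect in 664 rows (6.22%), 215 more positive (2.01%) and 449 more negative (4.2%) in pro-B cells, and 538 of these were also called in pro-B cells; the count was 386 without control replicate 1, 276 without control replicate 2, 572 without deleted replicate 1 and 309 without deleted replicate 2. From the Rag2-null effect it differed in 1493 rows (14%), 551 more positive (5.16%) and 942 more negative (8.82%), of which 1011 were called in pro-B cells (962 differing rows without control replicate 2, 943 without deleted replicate 2). Both interactions use the same 4 pro-B libraries.

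Glycolysis was a point of difference from c-Kit-high cells. Of its 24 rows 7 had a more negative effect in pro-B cells and 0 a more positive one, and the medians of the log2 difference were -0.72 in pro-B and 0.03 in c-Kit-high cells. The c-Kit-high controls started lower: Ldha was at 151 and 176 RPKM in them against 837 and 822 in the pro-B controls. Against Rag2-null cells, whose median was -0.50, 1 row differed. MHC class II showed the reverse: 7 of 9 rows had a more positive effect in pro-B than in Rag2-null cells, where the median was 0.07, and 2 of 9 against c-Kit-high cells, where it was 1.07. H2-Aa was at 0.2773 to 0.5502 RPKM in the 4 Rag2-null libraries.

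Tubb3 and Gldc fell in pro-B cells (with log2 effects of -3.13 and -5.10 in Rag2-null cells) from a level that c-Kit-high cells did not have, since the c-Kit-high controls held Tubb3 at 0.521 and 0.2504 RPKM and Gldc at 0.0366 and 0. Emx2 and Tox rose in pro-B cells with log2 effects of 4.29 and 3.67, against 0.30 and 0.24 in the c-Kit-high setting and 0.05 and 0.01 in the Rag2-null setting. The stromal genes went opposite ways in different settings: Mmp2 was at 5.95 and 9.25 RPKM in controls against 1.402 and 1.71 in deleted libraries and had log2 effects of -1.73 in pro-B cells, 2.67 in the c-Kit-high fraction and 2.40 in the Rag2-null cells, and Cxcl12 -1.85, -0.02 and 2.52. These lie beside sums of the list chosen after values were seen of 26.7 and 47.5 RPKM in the Rag2-null controls and 161.1 and 132.6 RPKM in the Rag2-null deleted libraries. The written endothelial and stromal list summed there to 619.3 and 767.2 RPKM in controls and to 2133 and 1596 RPKM after deletion. Vim, Cd248 and Serpinh1 are in these sums too.

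**Figure D5:**
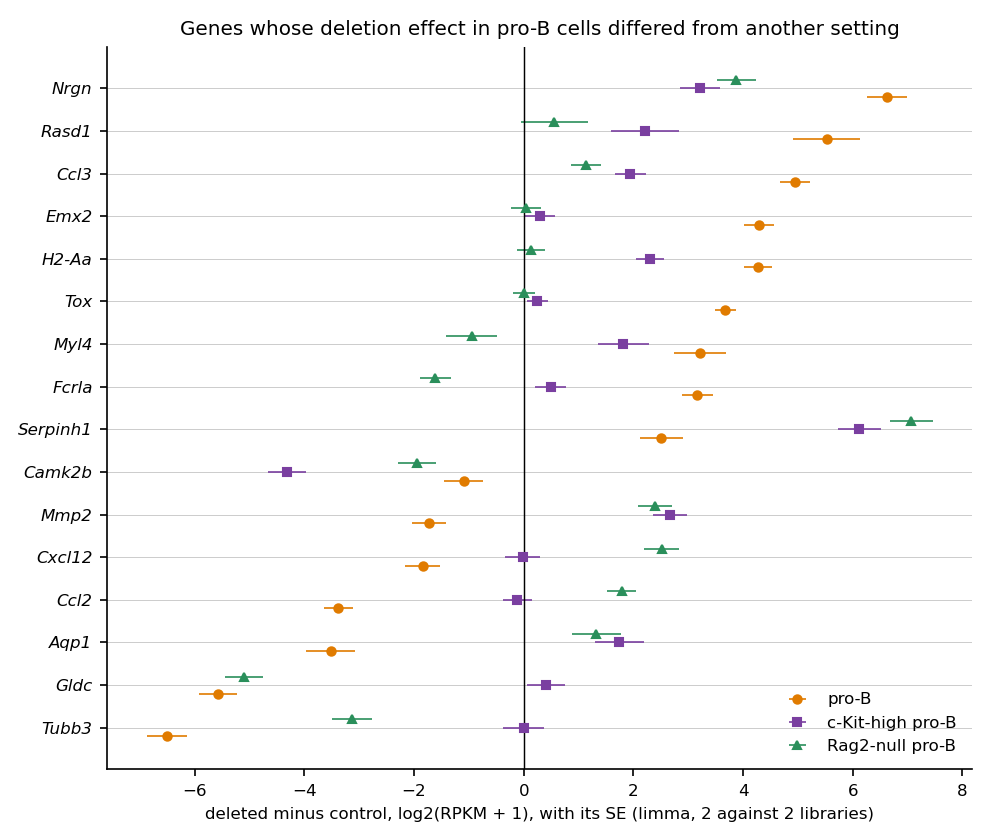
Log2 effect of the deletion with its SE in pro-B, c-Kit-high pro-B and Rag2-null pro-B cells (2 against 2 libraries each) for 16 genes with a difference between settings. Emx2 and Tox lie near 0 outside total pro-B cells, and Mmp2 and Aqp1 lie on opposite sides of 0.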

How the data were processed

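Polyadenylated RNA was sequenced as strand-specific single-end libraries, per the labels' protocols, and the authors deposited RPKM values for 21025 gene rows. The submitters' processing notes name mm9, TopHat 1.4.1, HTSeq 0.5.3 and DESeq 1.8.3. Their settings, and whether counting used strand, are not given in the sources used here; reads of overlapping or near-identical genes may have been split.

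From these values log2(RPKM + 1) was fitted with limma 3.58.1 (R 4.3.3; trend and robust moderation) over 14 libraries in 7 groups, with 7 residual degrees of freedom. Rows with RPKM of at least 1 in 2 of the 4 compared libraries were tested, and p-values were adjusted by Benjamini-Hochberg over 10683 rows. Calls are at an adjusted p under 0.05. Log2 differences are on the log2(RPKM + 1) scale, which understates changes of low genes, and folds are ratios of mean RPKM. With 2 against 2 libraries an exact permutation test cannot reach 0.05. The script was tested on simulated data. Read counts were not used here, and depth is an estimate from the spacing of low values.

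Named genes are Ikzf1, the 15 called genes with the largest log2 rise and fall, the 10 with the largest RPKM rise and fall, the 5 highest and lowest in each interaction, and members of written lists; predicted genes were left out of the ranked sets, and some genes that the rule selects are not reported here. The comparison, lists and genes were chosen with earlier results of these data known. A stromal list and the motifs ACGTG and ATTGG were added after values were seen. Symbols were matched to RefSeq for 20916 of 21025 rows (20658 by accession, 193 by symbol and 65 by synonym). Alternatives were the pseudocount, the filter, the normalization, the libraries in the fit, the moderation, and each compared library left out in turn.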

Additional observations from a re-analysis of the deposited data

Results flagged for a closer look

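The effect of the deletion in pro-B cells differed by an interaction test in limma from that in c-Kit-high pro-B cells in 664 rows and from that in Rag2-null pro-B cells in 1493 rows. Both interactions use the same 4 pro-B libraries. In the values that follow, a positive difference means a more positive log2 effect in pro-B cells. Against c-Kit-high cells the most positive differences among genes also called in pro-B cells were Emx2 (3.99), Tox (3.43), Nrgn (3.40), Camk2b (3.22) and Ccl3 (3.00). Camk2b had log2 effects of -1.10 in pro-B cells (limma adjusted p = 0.0344, and 0.0696 to 0.179 without any 1 library) and -4.31 in c-Kit-high cells. The most negative were Tubb3 (-6.51), Gldc (-5.98), Aqp1 (-5.26) and Mmp2 (-4.39). Against Rag2-null cells the most positive were Rasd1 (4.97), Fcrla (4.78), Emx2 (4.25), Myl4 (4.17) and H2-Aa (4.14). The most negative were Ccl2 (-5.17), Aqp1 (-4.84), Serpinh1 (-4.56), Cxcl12 (-4.37) and Mmp2 (-4.13). Serpinh1 rose in pro-B cells by 2.51 and had a log2 effect of 7.07 in Rag2-null cells. The stromal list chosen after values were seen summed lower after deletion in pro-B cells and higher in Rag2-null cells. Sums of the written endothelial and stromal list overlapped between groups in pro-B cells and were higher after deletion in Rag2-null cells. In pro-B cells most of the written sums lay in Vim, Cd248 and Serpinh1. The part of stromal RNA in the differences of Mmp2, Cxcl12, Serpinh1 and Ccl2 was not tested. The c-Kit-high differences of Camk2b and Ccl3 were not called with a pseudocount of 0.1, nor was that of Nrgn with the compared libraries alone (limma adjusted p = 0.0509, with the other alternatives called).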

How the results depend on the processing

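No paired analysis was possible because the labels give the libraries no replicate numbers shared between groups. Under the alternatives other than leaving out a library, the count of called rows ran from 2188 to 3222, against 2755, and the counts of differing effects from 444 to 800 (c-Kit-high) and from 1107 to 1562 (Rag2-null), all within 1.5 times the reported 664 and 1493. With 1 pro-B library left out the counts were 1737 to 1958, 276 to 572 and 943 to 1254; these settings have fewer samples, and the lone library of a group is assumed to vary like the other groups. Depth limits rows near 1 RPKM, where the pseudocount sets the size of a log2 difference.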
